A study of Mus musculus with 12 samples.

Results

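A set of 10 genes of mature neutrophils and monocytes, S100a8, S100a9, Lcn2, Ltf, Camp, Ngp, Cd14, Lyz2, Anxa1 and Itgam, was followed across 4 genotypes of mouse bone marrow progenitors. The genes were taken by name from a list, chosen with earlier results of these data known. All 10 of 10 were found among the 37187 genes of the deposited table. Each passed the filter on low values that left 14045 genes for testing. RNA was sequenced from sorted lineage-negative, Sca-1-positive, CD117-positive bone marrow cells (LSK cells), a population of blood stem cells and early progenitors. The 4 genotypes were WT, the single knockouts Tet2 KO and Traf6 KO, and the double knockout Tet2;TRaf6 dKO (written dKO here), with 3 libraries each. Tet2 encodes an enzyme that oxidises methylated cytosine, and Traf6 encodes a ubiquitin ligase of Toll-like receptor and interleukin 1 receptor signalling. Strain, age, sex, the promoter that drove any Cre, the deleted exons and any treatment were not given in the labels, nor whether the 3 libraries came from separate animals or pools. The p-values therefore measure the spread between libraries, which may be technical.

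Neutrophils are built in stages. Progenitors first fill primary granules with proteases and myeloperoxidase, and later cells switch to the proteins of secondary granules, among them lactoferrin (Ltf), lipocalin 2 (Lcn2), cathelicidin (Camp) and neutrophilic granule protein (Ngp), while S100a8 and S100a9 fill the cytosol with calprotectin. C/EBP factors and PU.1 are known to drive this programme. CD14 on monocytes and some neutrophils hands bacterial lipopolysaccharide to the receptor TLR4, whose signal runs through TRAF6. Lyz2 (lysozyme), Anxa1 (annexin A1, an inhibitor of leukocyte recruitment) and Itgam (CD11b, an integrin subunit) are expressed more broadly along the myeloid path. CD11b is also a usual target of the antibodies that define lineage-negative cells, although the antibodies used here were not listed in the labels.

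S100a8 and S100a9 are neighbours on chromosome 3 of GRCm38 (chr3:90668978-90670035 and chr3:90692632-90695721), 22596 bases apart and on opposite strands. Camp (chr9:109847379-109849617), Ngp (chr9:110419747-110423012) and Ltf (chr9:111019271-111042767) lie within 1195389 bases of chromosome 9. Lcn2 is at chr2:32384633-32388252, Lyz2 at chr10:117277331-117282321, Anxa1 at chr19:20373428-20390944 and Itgam at chr7:128062640-128118491. Promoter windows of 9 of the 10 genes were matched by symbol in RefSeq (GRCm38.p6). Both strands of the 250 bases before the start site were searched for TTGCNNAA, the core letters bound by C/EBP factors, and for GAGGAA, the core letters bound by PU.1. TTGCNNAA was found in 5 of the 9 windows (S100a9, Lcn2, Ltf, Ngp and Anxa1), while 9.56% of all 32851 windows held it. GAGGAA was found in 5 of the 9 (S100a8, Lcn2, Ltf, Anxa1 and Itgam), against 23.3% of all windows. The windows of Lcn2 and Anxa1, named for both motifs, lie inside the gene as GENCODE M21 annotates it and begin in an exon. Sequences follow for 4 of the 6 genes S100a8, S100a9, Lcn2, Ltf, Camp and Ngp. These 4 were picked because they hold a match before the first GENCODE M21 exon. Camp held neither motif, and Lcn2 had no bases before an exon in its window. The sequences run 5′ to 3′ toward the gene, from 250 bases before the RefSeq start up to the first GENCODE M21 exon. Matches to either motif are in capitals. Ltf holds both motifs, whereas in S100a9 and Ngp the capitals mark TTGCNNAA and in S100a8 they mark GAGGAA read on the other strand.
S100a8 chr3:90668821-90668977 (plus strand): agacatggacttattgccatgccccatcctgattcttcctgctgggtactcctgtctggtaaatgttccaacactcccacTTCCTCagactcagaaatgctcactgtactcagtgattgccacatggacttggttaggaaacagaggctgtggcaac
S100a9 chr3:90695722-90695971 (minus strand): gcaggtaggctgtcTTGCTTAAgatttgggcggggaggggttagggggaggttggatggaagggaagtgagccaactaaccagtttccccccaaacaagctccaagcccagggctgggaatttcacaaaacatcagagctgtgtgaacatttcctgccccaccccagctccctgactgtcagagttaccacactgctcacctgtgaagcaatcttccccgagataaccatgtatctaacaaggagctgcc
Ltf chr9:111019042-111019270 (plus strand): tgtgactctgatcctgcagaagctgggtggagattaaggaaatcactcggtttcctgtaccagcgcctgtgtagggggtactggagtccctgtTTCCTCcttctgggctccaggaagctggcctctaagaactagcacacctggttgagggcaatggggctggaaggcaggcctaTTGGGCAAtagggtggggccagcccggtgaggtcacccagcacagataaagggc
Ngp chr9:110419558-110419746 (plus strand): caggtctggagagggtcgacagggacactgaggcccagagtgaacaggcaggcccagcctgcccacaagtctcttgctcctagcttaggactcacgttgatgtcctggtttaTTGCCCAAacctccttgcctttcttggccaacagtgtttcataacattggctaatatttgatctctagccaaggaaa
A match of letters is a description of the sequence and does not show that a factor binds there.

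The values are the normalised signal deposited by the authors, in which the reads of a library were scaled by its own size factor. Library depth was 22169673 to 53921402 reads. The normalised signal summed to 4.00e+07 in dKO replicate 3 and to between 2.56e+07 and 2.89e+07 in every other library. Several libraries stood apart in ways that touch every comparison. In the dKO libraries the shift against WT depended on transcript length: the median log2 change was 1.55 for the 961 genes whose longest transcript had at most 1000 nt and -1.23 for the 4813 genes above 4000 nt. The trend was steepest in dKO replicate 3, where the shortest class stood 2.84 above the WT mean on the log2 scale (0.78 and 1.20 in replicates 1 and 2). Changes are therefore given as deposited and, for many genes, also after a smooth trend on length and GC content was taken off each library. A change with no mention of the trend is as deposited. The library labelled Tet2 KO replicate 1 held Tet2 at 668, inside the WT range of 525 to 783, and the library labelled Traf6 KO replicate 1 held Traf6 at 2474, inside the WT range of 1935 to 3006. Which part of each gene was deleted was not given in the labels, so a transcript level need not show the deletion. The Tet2 KO and Traf6 KO libraries also held Xist at 990 to 3826 and the WT and dKO libraries at 17.0 or less. Eif2s3y, a Y-linked gene, was at 2812 to 5669 in the WT and dKO libraries and at 55.4 or less in Tet2 KO, but it ran from 0.89 to 1524 in Traf6 KO, whose libraries all held Xist at 1164 or more. Sex of the source and genotype therefore cannot be told apart where a single knockout is set against WT or against dKO, nor in the interaction. Among the genes of the gate, Kit (CD117) averaged 46708 in WT and 6713 in dKO (log2 change -2.99, limma adjusted p = 0.000326), Ly6a (Sca-1) averaged 2178 in WT and ran from 1968 to 13218 in dKO (0.88, adjusted p = 0.181, and -0.56 with the trend removed), and Cd34 averaged 43412 and 52233.

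The 6 late neutrophil genes, S100a8, S100a9, Lcn2, Ltf, Camp and Ngp, were lowest on average in Tet2 KO. S100a9, a calprotectin subunit, stood at 556, 219 and 349 in the WT libraries and at 64.3, 106 and 86.4 in Tet2 KO. It reached 545, 825 and 310 in Traf6 KO, and dKO spread over 216, 777 and 2280. The Tet2 KO libraries lay below every other library, and the dKO libraries ran from the lowest WT level to far above any other. S100a8, the partner subunit, stood at 456, 168 and 312 (WT), at 57.0, 75.5 and 73.5 (Tet2 KO), at 401, 536 and 247 (Traf6 KO) and at 135, 500 and 1644 (dKO). The same library was highest for both genes, dKO replicate 3, and the ratio of S100a8 to S100a9 signal stayed between 0.626 and 0.893 in all 12 libraries.

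**Figure D1:**
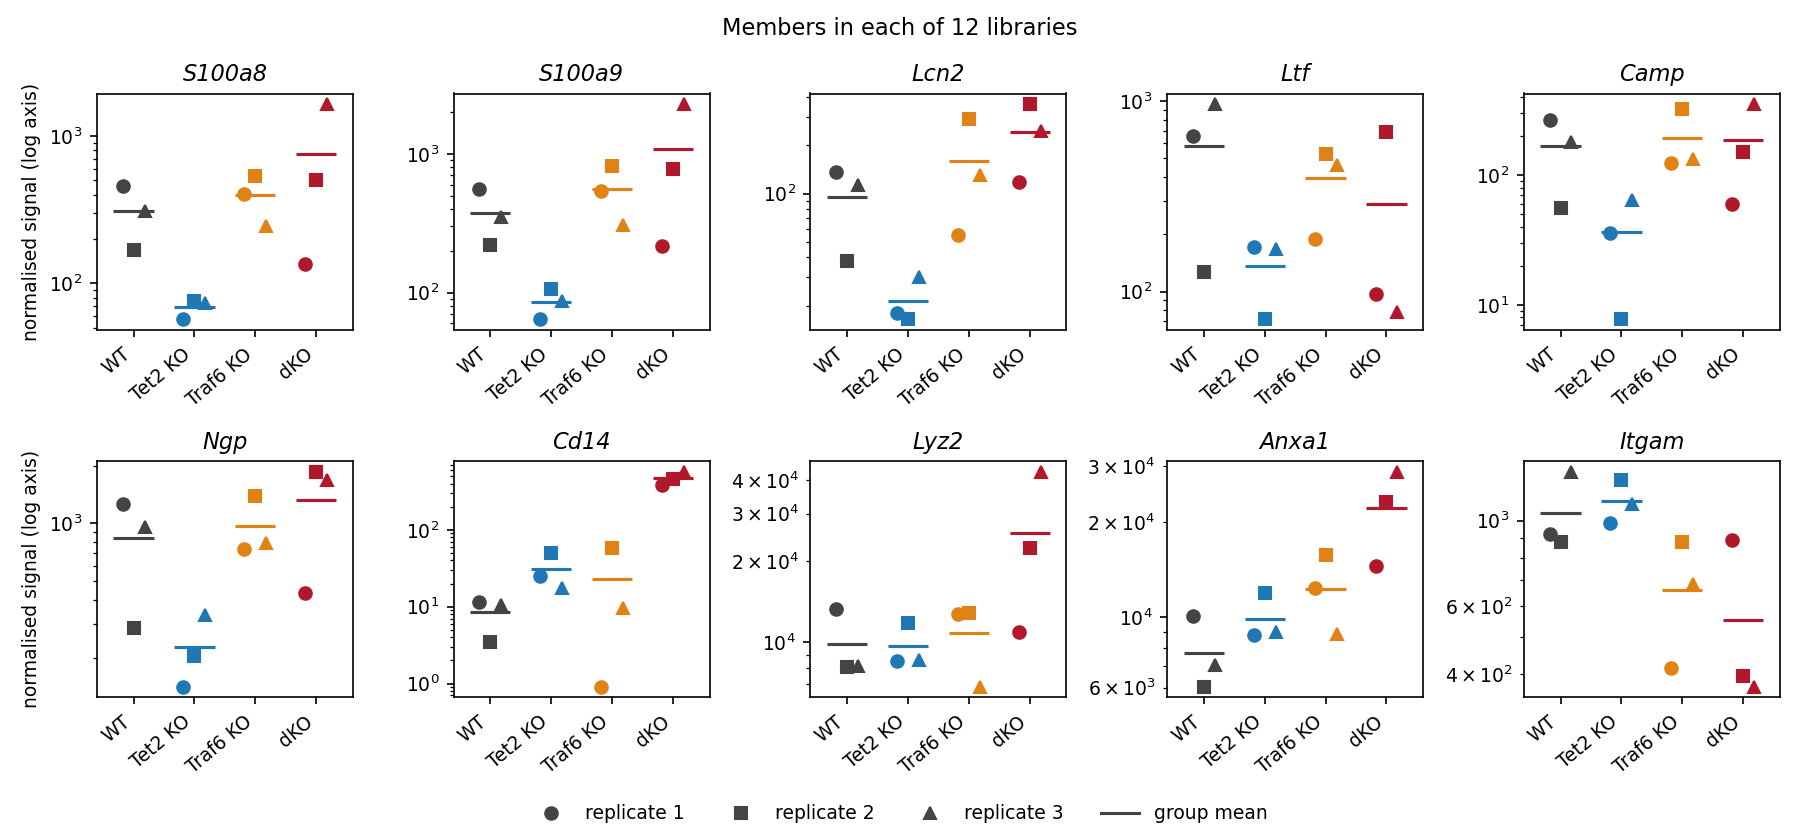
Normalised signal (log axis) of the 10 genes in each library, by genotype; symbols are replicates and lines are group means. The 6 late neutrophil genes sit low in Tet2 KO and spread widely in dKO, and Cd14 is high in all 3 dKO libraries (388 to 570) and at 58.0 or less elsewhere.

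Among the granule proteins, Lcn2, which traps bacterial siderophores, stood at 136, 37.7 and 114 (WT), at 17.9, 16.5 and 30.0 (Tet2 KO), at 55.5, 291 and 130 (Traf6 KO) and at 117, 360 and 247 (dKO). All 3 Tet2 KO libraries were again below all others. Ngp, a cathelin-related granule protein, stood at 1267, 286 and 959 (WT), at 141, 205 and 334 (Tet2 KO), at 734, 1390 and 790 (Traf6 KO) and at 435, 1859 and 1684 (dKO). Here the highest Tet2 KO library overlapped the lowest WT library. Camp, the precursor of an antimicrobial peptide, stood at 265, 56.0 and 180 (WT), at 35.9, 7.74 and 64.7 (Tet2 KO), at 123, 324 and 132 (Traf6 KO) and at 60.1, 150 and 350 (dKO). Its groups overlapped too, and its lowest value rested on 8 reads. Ltf, the iron-binding lactoferrin, stood at 652, 127 and 963 (WT), at 172, 71.6 and 167 (Tet2 KO), at 189, 529 and 462 (Traf6 KO) and at 97.6, 686 and 78.6 (dKO). As deposited, Ltf departed from the other 5 in dKO replicate 3, where it was at its lowest in that genotype while S100a8, S100a9 and Camp were at their highest. With the trend removed Ltf was still lowest there, at -2.46 on the log2 scale against the WT mean. S100a8, S100a9 and Camp were then highest in dKO replicate 2 (-0.63, -0.24 and -0.93, against -0.66, -0.42 and -1.28 in replicate 3).

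WT replicate 2 had the lowest WT value of all 6 genes. The spread inside WT was correspondingly wide: Ngp averaged 837 ± 502 (SD, n = 3) and Ltf 581 ± 423 (SD, n = 3). In Tet2 KO the means were 227 ± 98.4 for Ngp and 137 ± 56.6 for Ltf (SD, n = 3). Summed over the 6 genes, the signal ran from 893 to 3332 (WT), 483 to 756 (Tet2 KO), 2047 to 3894 (Traf6 KO) and 1061 to 6284 (dKO). In bulk RNA, fewer cells that carry these transcripts and less of the transcript per cell cannot be told apart.

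Against WT, Tet2 KO gave log2 changes of -1.72 (Ngp) to -2.34 (Camp) for these 6 genes, or 3.28-fold to 5.06-fold lower on the log2(value + 1) scale. None passed: 0 of all 10 genes were called at a limma adjusted p under 0.05, and 0.413% of all tested genes were. S100a9 was the nearest (log2 change -2.04, SE 0.68, limma adjusted p = 0.297). At an unadjusted limma p under 0.05 there were 5 of 10, against 8.44% of all genes; edgeR called 0 (0.306% of all genes) and DESeq2 called 2, S100a8 and S100a9 (2.14% of all genes by DESeq2). The 3 genes whose Tet2 KO and WT libraries did not overlap downward were S100a8, S100a9 and Lcn2, a separation that 11.1% of all genes showed, and Cd14 was the gene separated upward (8.07% of all genes). The median log2 change over the 10 genes was -1.73, beside 0.02 over all tested genes.

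With the length and GC trend taken off, the Tet2 KO differences kept their size, and the SE was smaller for 5 of the 6 late genes (Ltf was the exception). S100a8 was then lower by a log2 change of -2.19 (SE 0.39, limma adjusted p = 0.0277) and S100a9 by -2.17 (SE 0.37, limma adjusted p = 0.0193). These 2 of 10 calls stand beside 0.534% of all genes in that fit. The other 4 late genes were at -1.83 (Ltf) to -2.46 (Camp) and did not pass.

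**Figure D2:**
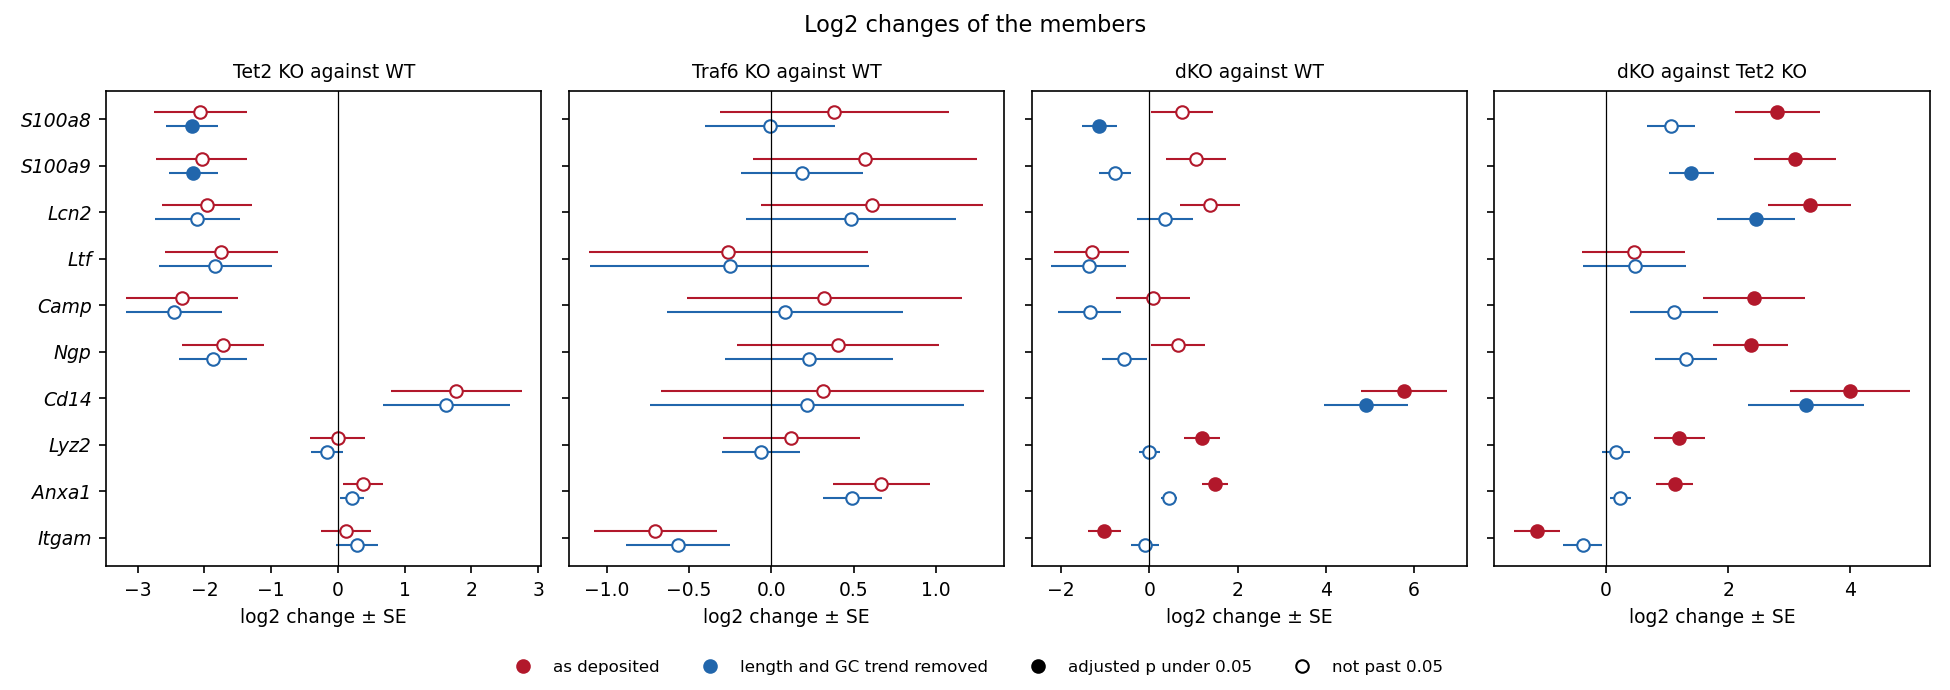
Log2 change ± SE of each gene in 4 comparisons, as deposited (red) and after the length and GC trend was taken off (blue); filled points have a limma adjusted p under 0.05, and the axes differ between panels. The Tet2 KO differences of the late neutrophil genes keep their size without the trend, whereas those of Lyz2, Anxa1 and Itgam in dKO against WT move to between -0.10 and 0.44 and Cd14 is at 4.90 there.

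Traf6 KO and WT libraries overlapped for every late neutrophil gene. Their log2 changes ran from -0.26 (Ltf) to 0.61 (Lcn2), all smaller than the SE of 0.61 to 0.85. Of the 10 genes 0 were called by limma, 0 by edgeR and 0 by DESeq2, beside 0.271%, 0.199% and 1.19% of all genes. Only Anxa1 had an unadjusted limma p under 0.05 (1 of 10, against 7.80% of all genes), with a log2 change of 0.67 (limma adjusted p = 0.617). Itgam was the gene whose Traf6 KO and WT libraries did not overlap (1 of 10, where 20.7% of all genes were separated in either direction). It stood at 415, 880 and 686 against 922, 881 and 1338. The nearest values, 880.49 and 880.83, lay closer than the signal of 1 read in those libraries (1.16 and 1.14). Its log2 change was -0.70 (limma adjusted p = 0.707).

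The dKO comparisons share their reference libraries with those above, since dKO was set against WT, against Tet2 KO and against Traf6 KO. Against WT, 4 of the 10 genes passed (3 higher, 1 lower), beside 48.3% of all tested genes (21.9% higher and 26.5% lower). Against Tet2 KO, 9 of 10 passed (8 higher, 1 lower), beside 35.3% (15.5% higher and 19.9% lower), and Ltf was the exception (log2 change 0.45, limma adjusted p = 0.699). Against Traf6 KO, 2 of 10 passed, both higher, beside 38.0% (17.3% higher). The count against WT is thus close to the background, that against Traf6 KO is below it, and that against Tet2 KO is above it. These counts are descriptions and do not test the list. The genes were chosen with earlier results known, and several of them moved together between libraries.

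None of the 6 late neutrophil genes passed between dKO and WT. S100a9 was at a log2 change of 1.05 (SE 0.68, limma adjusted p = 0.213), Lcn2 at 1.38 (adjusted p = 0.107) and Ltf at -1.30 (adjusted p = 0.22). The outcome depended on single dKO libraries: without dKO replicate 1, S100a8, S100a9 and Lcn2 were called at 1.65, 1.93 and 1.82, and without dKO replicate 2, Ltf was called at -2.28. DESeq2 called S100a9 at 1.57 (adjusted p = 0.03). Once length and GC were accounted for, the sign of S100a8 turned, to -1.13 (limma adjusted p = 0.0453), and S100a9 stood at -0.77 (adjusted p = 0.129). Camp and Ngp moved from 0.08 and 0.66 to -1.35 and -0.56 without passing, and Lcn2 stood at 0.36. In that fit 2 of the 10 genes were called, S100a8 lower and Cd14 higher, beside 30.9% of all genes. S100a8 and S100a9 are the 2 shortest transcripts of the list (498 and 519 nt), and the genes of up to 1000 nt as a class were at 1.55.

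Between dKO and Tet2 KO, which also differed in Xist and Eif2s3y, 5 of the 6 late genes were higher. Lcn2 rose by a log2 change of 3.34 (SE 0.68, limma adjusted p = 0.00784), S100a9 by 3.10 (adjusted p = 0.00945) and S100a8 by 2.80 (adjusted p = 0.013). Ngp rose by 2.37 (adjusted p = 0.0146) and Camp by 2.42 (adjusted p = 0.0395). S100a8, S100a9, Lcn2 and Ngp did not overlap between these groups, and with Cd14 and Anxa1 they made 6 of 10, where 22.0% of all genes were separated upward. With the trend removed 3 of the 10 genes passed (17.0% of all genes in that fit): Lcn2 at 2.46 (limma adjusted p = 0.0253), S100a9 at 1.39 (adjusted p = 0.0272) and Cd14 at 3.28 (adjusted p = 0.0355). The calls as deposited also rested on the library labelled Tet2 KO replicate 1, which held Tet2 at a WT level. Without it only Lcn2 was called among the 10, and the changes of the others called moved little (S100a9 to 2.91, limma adjusted p = 0.0505). Without it 867 of all genes were called, in place of 4963. Without both libraries at the WT level of their targeted gene, 0 of the 10 were called by limma and 57 of all genes. Libraries were left out of fits as deposited alone, so the calls with the trend removed were not tested in this way.

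The interaction asks whether the step from Tet2 KO to dKO differed from the step from WT to Traf6 KO. By limma 0 of 10 genes were called, beside 0.221% of all genes, although 5 of 10 had an unadjusted p under 0.05 (18.6% of all genes). For S100a9 the estimate was 2.53 (SE 0.96, limma adjusted p = 0.243). By edgeR 0 were called (0.192% of all genes), and by DESeq2 2 were, S100a8 and S100a9 (1.84% of all genes by DESeq2). With the trend removed, S100a9 was at 1.21 (SE 0.52, limma adjusted p = 0.321) and S100a8 at 1.07. The median over the 10 genes went from 2.03 to 1.05. As a class, the genes of up to 1000 nt had a median interaction of 1.23 as deposited. Without dKO replicate 1 the count of the 10 genes was 5 and that of all genes rose from 31 to 2445. The difference in the Traf6 effect between the Tet2 states was therefore not shown for the 10 genes in the fit of all libraries.

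**Figure D3:**
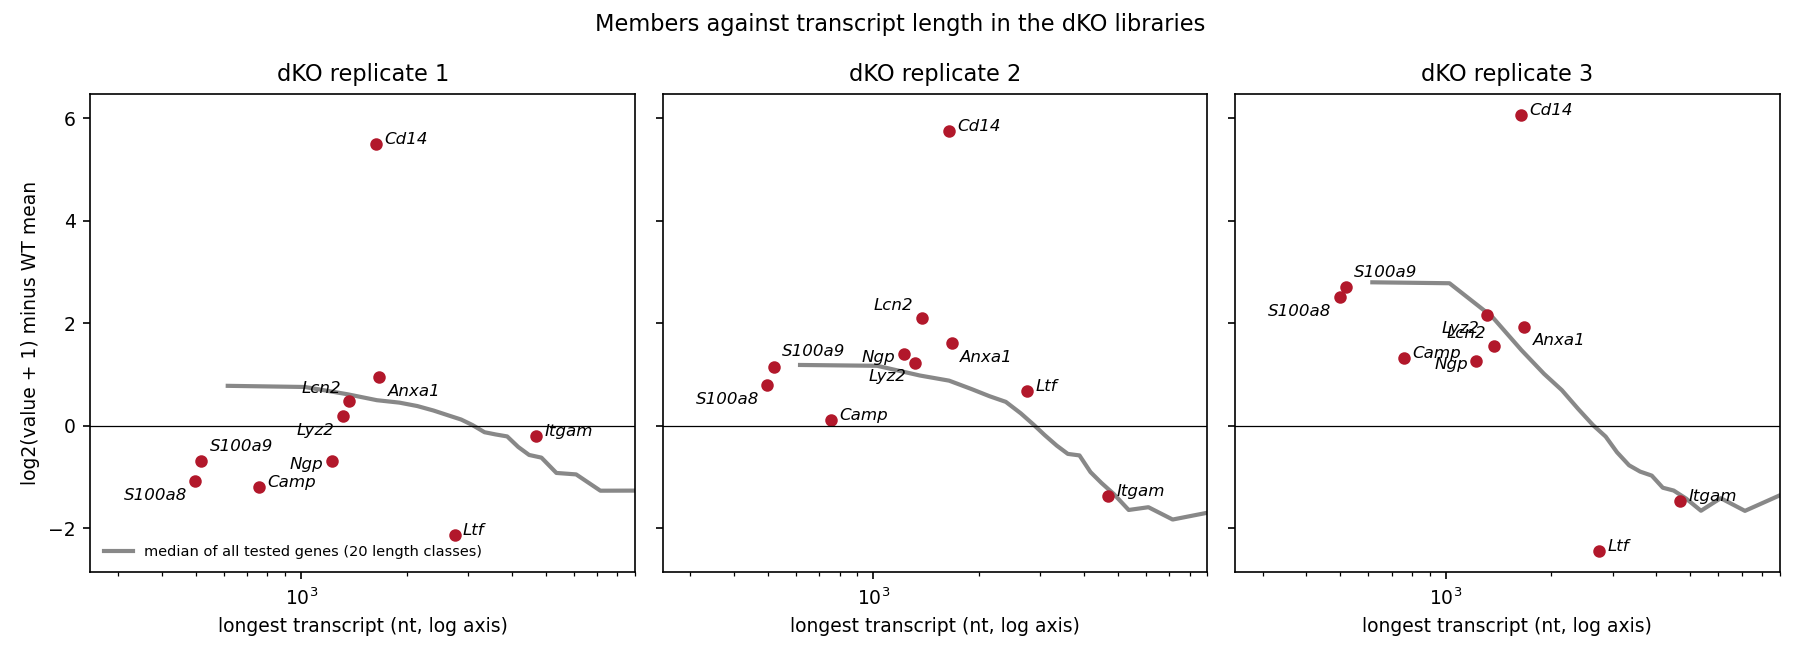
Log2(value + 1) of the 10 genes minus the WT mean against the length of the longest transcript (nt, log axis) in each dKO library; the grey line is the median of all tested genes in 20 length classes. The line slopes down most steeply in replicate 3, S100a8 and S100a9 lie below the level of the shortest genes in all 3 libraries, and Cd14 lies far above the line (4.61 to 5.08 above WT with the trend removed).

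Cd14 (chr18:36725067-36726798), the lipopolysaccharide co-receptor, was the clearest single difference. It stood at 11.4, 3.43 and 10.6 (WT), at 25.3, 50.3 and 17.6 (Tet2 KO), at 0.91, 58.0 and 9.76 (Traf6 KO) and at 388, 462 and 570 (dKO). Every dKO library was above every other library. The values outside dKO rested on few reads (3 to 16 in WT, 24 to 52 in Tet2 KO and 1 to 50 in Traf6 KO, against 319 to 413 in dKO). The dKO mean was 473 ± 91.8 (SD, n = 3) against 8.45 ± 4.37 in WT. The log2 change was 5.77 against WT (SE 0.98, limma adjusted p = 0.000914), rank 9 among the rises of all tested genes. It was 5.46 against Traf6 KO (SE 0.98, limma adjusted p = 0.00272) and 3.999 against Tet2 KO (adjusted p = 0.0125). With the trend removed the change against WT was 4.90 (adjusted p = 0.00331). Cd14 passed in all 17 alternatives against WT (4.90 to 6.03) and in all 18 against Traf6 KO (4.22 to 6.69). Against Tet2 KO it passed in 16 of 18, and it did not where Tet2 KO replicate 1 was left out (3.92, adjusted p = 0.057). The Tet2 KO libraries lay above the WT libraries without overlap, but the log2 change of 1.77 did not pass (SE 0.98, limma adjusted p = 0.722).

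Of 13 tested genes for receptors and partners of the 10, 4 were higher and 1 was lower in dKO than in WT. Together they were no larger a share than the 48.3% called among all genes (21.9% higher and 26.5% lower). Their median log2 change was -0.13 beside -0.09 over all genes. Tlr4, the receptor itself, averaged 1120 in WT and 390 in dKO (log2 change -1.75, limma adjusted p = 0.0108, and -1.29 with the trend removed). Lbp, whose product loads lipopolysaccharide onto CD14, averaged 1274 and 3078 (1.27, adjusted p = 0.00179, and 1.09 with the trend removed). Ly96, which encodes the MD-2 subunit, was at 1.58 (adjusted p = 0.042) and at -0.23 with the trend removed. Myd88, the adaptor between receptor and TRAF6, was at 0.63 (adjusted p = 0.0285) and did not pass with the trend removed (0.40). Icam1, a ligand of the CD11b integrin, was at -0.08 (adjusted p = 0.845).

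Lyz2 and Anxa1 were the most abundant of the 10 per length, at 10597 and 7771 signal units per 1000 nt of the longest transcript averaged over the 4 groups, against 1017 for S100a9 and 81.6 for Cd14. Lyz2 stood at 13269, 8078 and 8184 (WT), at 8553, 11832 and 8616 (Tet2 KO), at 12777, 12871 and 6846 (Traf6 KO) and at 10942, 22434 and 42943 (dKO). The dKO values differed by a factor of 3.92 among themselves, and dKO replicate 1 was inside the WT range. Anxa1 stood at 10074, 6040 and 7048 (WT), at 8780, 11905 and 8969 (Tet2 KO), at 12373, 15675 and 8856 (Traf6 KO) and at 14521, 23106 and 28752 (dKO). All dKO libraries were above all WT and all Tet2 KO libraries, and dKO replicate 1 overlapped Traf6 KO.

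Both genes passed in dKO against WT as deposited, and neither passed with the trend removed. Against WT, Anxa1 was at a log2 change of 1.497 (SE 0.30, limma adjusted p = 0.00201) and at 0.44 with the trend removed (SE 0.18, adjusted p = 0.0748). Its dKO libraries still lay above all WT libraries with the trend removed (0.31 to 0.64 against 0.21 or less, relative to the WT mean). Lyz2 was at 1.20 (SE 0.42, limma adjusted p = 0.0303) and at 0.00 with the trend removed (adjusted p = 0.998). Without dKO replicate 3 Lyz2 was at 0.71 and did not pass (adjusted p = 0.124). Against Traf6 KO, Anxa1 was at 0.83 (adjusted p = 0.0415) and turned to -0.048 with the trend removed, where Cd14 alone of the 10 passed (20.7% of all genes). Their transcripts of 1316 and 1674 nt belong to the class of 1000 to 2000 nt, whose 2377 genes had a median log2 change of 1.05 against WT.

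Itgam ran the other way. It stood at 922, 881 and 1338 (WT), at 986, 1274 and 1105 (Tet2 KO), at 415, 880 and 686 (Traf6 KO) and at 890, 397 and 372 (dKO). The dKO replicate 1 value lay within the WT range and the other dKO values lay below all WT values. The log2 change was -1.02 against WT (SE 0.37, limma adjusted p = 0.0377) and -1.13 against Tet2 KO (adjusted p = 0.0329). With the trend removed these were -0.10 (adjusted p = 0.844) and -0.39 (adjusted p = 0.415). The call against WT was kept in 5 of 17 alternatives. It was lost with no filter (limma adjusted p = 0.0633), with the replicate block (0.0579), by edgeR (0.0583) and in the fit of the compared groups alone (0.0769). It was also lost without any one WT library and without dKO replicate 2 or 3 (limma adjusted p = 0.0608 to 0.142). Itgam has the longest transcript of the list (4682 nt), and a predicted gene on the same strand overlaps its exons, so that reads of the 2 could be split or dropped by the counting. Its partner subunit Itgb2 (CD18) averaged 1144 in WT and 994 in dKO (log2 change -0.32, limma adjusted p = 0.481).

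The late neutrophil genes were next set beside the genes of earlier granules. The 10 progenitor granule genes summed to 37888 to 50014 (WT), 68022 to 126382 (Tet2 KO), 52985 to 161225 (Traf6 KO) and 182483 to 328182 (dKO). In each Tet2 KO library the early sum was above that of all WT libraries while the sum of the 6 late genes was below that of all of them. This holds for the sums: Ngp, Camp and Ltf overlapped between Tet2 KO and WT. So did the early genes Ctsg, Prss57, Srgn (serglycin) and Ctsc (cathepsin C), with Prss57 at 498 to 730 in Tet2 KO and 476 to 666 in WT. Mpo alone ran from 40669 to 85126 in Tet2 KO. The early signal was thus 139 to 167 times the late signal in Tet2 KO but 15.0 to 42.4 times in WT, with 25.9 to 41.4 times for Traf6 KO and 42.1 to 206 times for dKO. These ratios mix long and short transcripts, and no test was made on them. Against WT, 9 of the 10 early genes rose in dKO (median log2 change 3.46), beside 21.9% of all genes. With the trend removed 8 of 10 rose, where 30.9% of all genes were called in either direction. In Tet2 KO 0 of 10 passed, beside 0.413% of all genes. Prtn3 (proteinase 3) averaged 2149 in WT and 29048 in dKO (3.51, limma adjusted p = 0.000386, and 2.44 with the trend removed). Elane (neutrophil elastase) averaged 264 and 12218 (5.62, adjusted p = 0.000463, and 4.44 with the trend removed). Mpo (myeloperoxidase), the most abundant of them, averaged 17065 and 94260 (2.46, adjusted p = 0.0038, and 2.54 with the trend removed). Srgn, the next in abundance, was at 1.61 (adjusted p = 0.0055) and at 0.58 with the trend removed (adjusted p = 0.0752).

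**Figure D4:**
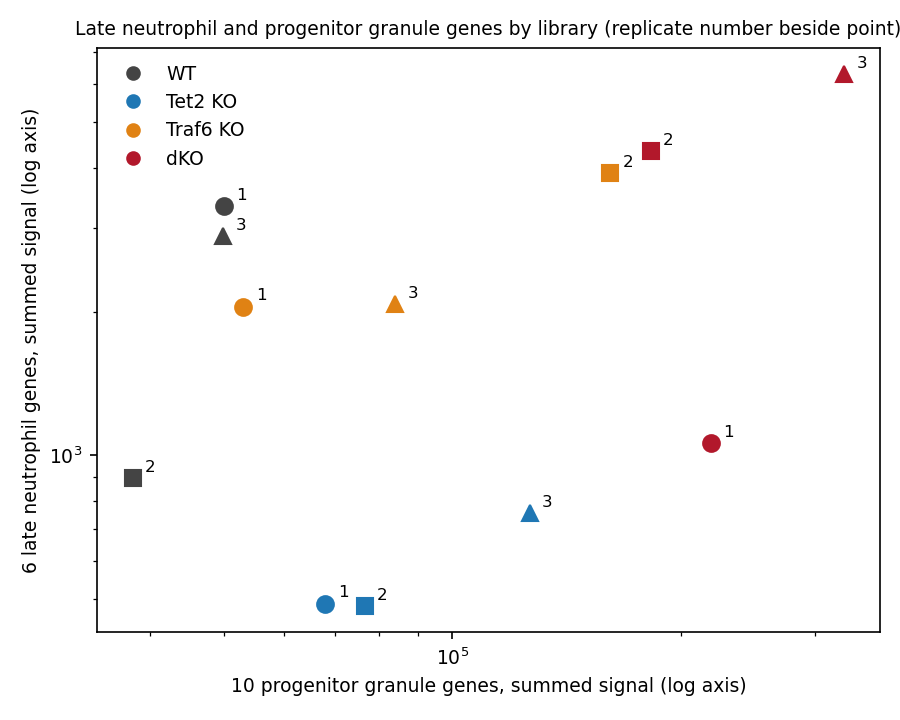
Summed signal of the 6 late neutrophil genes against that of the 10 progenitor granule genes (both log axes), 1 point a library with its replicate number. The Tet2 KO libraries have the lowest late sums (483 to 756), and the dKO libraries have the highest early sums (182483 to 328182) with late sums from 1061 to 6284.

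Other genes of mature neutrophils formed a further list. Of 26 tested, 0 passed in Tet2 KO against WT by limma in either direction, where 0.413% of all genes did. Their median log2 change there was 0.11. In dKO against WT 12 rose and 2 fell, beside 48.3% of all genes (21.9% higher and 26.5% lower), with a median of 0.85. With the trend removed 9 rose and 2 fell, beside 30.9% of all genes in either direction. Hp (haptoglobin, a granule protein of neutrophils) averaged 37.7 (WT), 129 (Tet2 KO), 328 (Traf6 KO) and 1404 (dKO) (log2 change 5.32, limma adjusted p = 0.000947, and 4.34 with the trend removed). Its dKO libraries stood at 1110 to 1605, above all others. Trem1, an amplifying receptor of myeloid cells, averaged 28.1 in WT and 460 in dKO (3.80, adjusted p = 0.000616, and 3.86 with the trend removed). Pglyrp1, a peptidoglycan-binding granule protein, averaged 202 and 1979 (3.02, adjusted p = 0.000563, and 1.74 with the trend removed). Mxd1, a MAX partner of maturing myeloid cells, fell from 1450 to 452 (-1.68, adjusted p = 0.000932, and -0.74 with the trend removed). Of the most abundant, Serpinb1a, an elastase inhibitor, was at 1.36 (adjusted p = 0.00152) and at 0.49 with the trend removed. Csf3r, the G-CSF receptor, was at -0.54 (adjusted p = 0.198). Ly6g, whose product defines mature mouse neutrophils, was at 3.57 or less in all 12 libraries, and Stfa1 and Stfa2 were at 0 in all of them.

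Of 23 tested monocyte and macrophage genes, 0 passed in Tet2 KO, where 0.413% of all genes did. In dKO 11 were higher and 3 lower than in WT, beside 48.3% of all genes (21.9% higher and 26.5% lower). With the trend removed 10 were higher and 2 lower, beside 30.9% of all genes in either direction. Their median log2 change in dKO was 1.91. Ly6c2, a surface marker of inflammatory monocytes, averaged 22.5 in WT and 1211 in dKO (5.59, limma adjusted p = 0.000302, and 5.42 with the trend removed). Ms4a6c averaged 339 and 2863 (3.04, adjusted p = 0.000261, and 2.09 with the trend removed). Cd68, a lysosomal glycoprotein of macrophages, averaged 428 and 2926 (2.61, adjusted p = 0.000349, and 1.45 with the trend removed). Grn (progranulin) and Psap (prosaposin), the most abundant, were at 0.33 (adjusted p = 0.169) and -0.54 (adjusted p = 0.169). Clec12a, an inhibitory lectin and the next in abundance, averaged 988 and 5366 and rose (2.43, adjusted p = 0.000683, and 2.45 with the trend removed). Cd300e was at 0 in all 12 libraries. Markers of mast cells, basophils and eosinophils moved in dKO and Traf6 KO as well: their 10 genes summed to 1382 to 2237 (WT), 1393 to 1846 (Tet2 KO), 3605 to 9399 (Traf6 KO) and 5997 to 10512 (dKO). The 8 erythroid genes summed to 43741 to 55242 (WT), 57599 to 173025 (Tet2 KO), 49735 to 60542 (Traf6 KO) and 81391 to 118827 (dKO), so that all Tet2 KO and all dKO libraries were above all WT libraries. The 8 megakaryocyte genes were below all WT libraries (20479 to 28970) in Tet2 KO (16276 to 18630) and in dKO (12314 to 17783). The 8 dendritic cell genes were below all WT libraries (16636 to 23051) in Tet2 KO (11263 to 14927) and in Traf6 KO (9623 to 11159), and ran from 10624 to 47995 in dKO. The 7 B cell genes summed to 6683 to 9747 (WT), 11777 to 67882 (Tet2 KO), 6589 to 32267 (Traf6 KO) and 7589 to 60434 (dKO). The 8 genes of T and NK cells summed to 223 or less in every library. The 8 stromal and endothelial genes summed to 4297 to 5155 in WT and to 2793 to 3584 in dKO. A sum weighs abundant genes most. By limma 0 of 8 erythroid genes passed in Tet2 KO and 2 in dKO, beside 0.413% and 48.3% of all genes. The erythroid median log2 change in dKO was 0.83, and -0.21 with the trend removed. Of 8 megakaryocyte genes 1 was lower in Tet2 KO, while in dKO 1 was higher and 2 were lower, beside the same shares of all genes. With the trend removed 2 were lower in Tet2 KO, and 0 were higher and 4 lower in dKO, beside 0.534% and 30.9% of all genes. Of 7 tested dendritic cell genes 0 passed in Tet2 KO. The part of these cell types in the levels of the 10 genes was not tested.

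Among regulators of granule genes, Cebpd averaged 142 in WT and 1102 in dKO (2.60, limma adjusted p = 0.00279), and Cebpb 485 and 1537 (1.52, adjusted p = 0.00723). Both also passed with the trend removed (3.18 and 0.91). Of the 9 tested these 2 rose and 2 fell, no larger a share than the 48.3% called among all genes. Stat3 (-1.53, adjusted p = 0.000718) and Runx1 (-0.99, adjusted p = 0.00578) fell and did not pass with the trend removed. Myc, the most abundant, was at 0.37 (adjusted p = 0.214). In Tet2 KO 0 of 9 passed by limma, beside 0.413% of all genes, with a median log2 change of 0.21. Cebpe, the factor known for secondary granule genes, averaged 18.6 (WT), 32.1 (Tet2 KO), 20.5 (Traf6 KO) and 53.3 (dKO). Its change in dKO did not pass (1.43, limma adjusted p = 0.14). Spi1, which encodes PU.1, was not analysed here.

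Relatives of the 10 genes by family were read in the same way. Of 20 tested relatives (other S100 proteins, annexins, integrin subunits and transferrin), 9 rose and 2 fell in dKO against WT. Among all genes 48.3% were called, 21.9% higher and 26.5% lower. With the trend removed 2 rose and 1 fell, a smaller share than among all genes (30.9%). Anxa2 was higher in both (1.76, limma adjusted p = 0.000508, and 1.37 with the trend removed), and Anxa11 lower in both (-1.46, adjusted p = 0.00233, and -1.43). S100a6 was at 1.996 (adjusted p = 0.00504) and at 0.53 with the trend removed. S100a10, the most abundant of the S100 relatives, was at 1.70 (adjusted p = 0.0129) and at 0.15 with the trend removed. Anxa5, the most abundant relative, was at 0.56 (adjusted p = 0.0871). In Tet2 KO 0 of the 20 passed by limma, beside 0.413% of all genes, with a median log2 change of -0.28.

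The levels of the late neutrophil genes moved together from library to library. After the mean of each genotype was taken off, Pearson's r of log2 values over the 12 libraries ran from 0.09 to 0.99 across the 15 pairs of the 6 genes, with a median of 0.68. With that trend off as well it ran from 0.31 to 0.96 with a median of 0.71. S100a8 and S100a9 had the highest value. With genotype means removed, the median r with the 6 genes was 0.64 for Anxa1, 0.55 for Lyz2, 0.35 for Cd14 and -0.22 for Itgam, so that Anxa1 and Lyz2 came near the value among the 6. With the trend also removed these medians were 0.50, 0.22, 0.29 and 0.11. These are descriptions over 12 libraries that share depth and length trends. By the same measure the genes most like the mean profile of the 10 were Apoe (r = 0.88), Tmem17 (0.88), Reep5 (0.87), S100a4 (0.87) and Cpa3 (0.85) across libraries, then Rps25, Lipt1, Gin1, Cenpw and Psmb5. With genotype means removed they were Vps45 (0.96), Tmem17 (0.95), Cfp (0.95), Cbwd1 (0.94) and Gtf2f2 (0.92), then Pusl1, Tmed5, Cetn4, Cd48 and Angptl4.

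In the order of group means, Tet2 KO was lowest for all 6 late neutrophil genes and for Lyz2. For S100a8, S100a9 and Lcn2 it was separated from the next group, WT, while WT, Traf6 KO and dKO overlapped with their neighbours. For Ltf, Camp and Ngp all neighbouring groups overlapped. For Cd14 the order was WT, Traf6 KO, Tet2 KO and dKO, and only the last step was a separation. Neighbours also overlapped at every step for Lyz2 and Anxa1. For Itgam only Traf6 KO and WT were separated, by less than the signal of 1 read.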

How the data were processed

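RNA from sorted LSK bone marrow cells of 4 genotypes was made into cDNA with a SMART-Seq v4 low-input kit, which does not mark strand, and sequenced on a HiSeq 4000, per the labels' protocols. Per the submitters' processing notes, the tools were DESeq2, featureCounts, STAR and bcl2fastq, and the builds GRCm38 and mm10. Their versions, settings and annotation: not given in the sources used here. The authors deposited 1 table of normalised signal, in which each library's reads were scaled by its size factor. In every library 100% of values were whole multiples of the smallest value above 0 (tolerance 1e-06), so reads were recovered (22169673 to 53921402 per library).

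The 14045 genes that reached 10 in 3 or more libraries were tested on log2(value + 1), pseudocount 1, with limma 3.58.1 (R 4.3.3; trend and robust moderation) over 4 groups of 3 libraries. P-values were adjusted by Benjamini-Hochberg over all tested genes, with a threshold of 0.05. Groups came from the labels. The edgeR 4.0.16 quasi-likelihood test on the recovered reads called 43 genes in Tet2 KO against WT, 28 in Traf6 KO against WT and 6539 in dKO against WT; DESeq2 1.42.0 was run too. A loess trend (span 0.5) of log2 values on log10 transcript length and GC content was removed per library as an alternative, for the 13678 tested genes (97.4%) with a longest GENCODE M21 transcript. Other alternatives changed the pseudocount (5), the filter (50, or none), the scaling, the samples in the fit, the replicate block and each library in turn. Scripts were tested on simulated data.

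The 10 genes and the gene lists were chosen with earlier results of these data known. From each list the genes named were up to 4 with the smallest adjusted p and the 3 most abundant (1 of these is not reported here); likeness took the 10 highest r among tested genes with a mean of at least 50. Ly6g, Stfa1, Stfa2, Cd300e, Itgb2, Cebpe, Ctsc, Ctsg, Prss57, Ly6a, Spi1, Eif2s3y and Xist were named after values were seen. No promoter window was matched for Cd14.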

Additional observations from a re-analysis of the deposited data

How the results depend on the processing

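Over 1120 combinations of a gene, a comparison and an alternative, 1005 kept direction and side of the threshold, 88 lost the call, 24 gained it and 3 turned sign; 56 differences that passed nowhere also changed sign. The 3 that turned were S100a8 in dKO against WT (-1.13, length and GC trend removed) and Anxa1 in dKO against Traf6 KO (-0.048 with that trend removed, and -0.048 with the replicate block added). Counts among the 10 genes moved as follows. In Tet2 KO against WT (0) they were 2 with the trend removed, 1 with trend and block, 2 with the compared groups alone and 2 by DESeq2. In dKO against WT (4) they were 2, 1 and 2 under the first 3 of these and 2 to 7 leaving out a library. In dKO against Tet2 KO (9) they were 3, 3 and 1, 0 without both libraries at the WT level of their targeted gene, and 1 to 9 leaving out a library. In dKO against Traf6 KO (2) the count was 1 with no filter, equal totals, the replicate block, the trend removed (with or without block), the compared groups alone and without those libraries, and 1 to 3 leaving out a library. The interaction (0) gave 2 by DESeq2 and 0 to 5 leaving out a library.

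Of all genes, Tet2 KO against WT (58) gave 327 with the compared groups alone, 300 by DESeq2, 117 without those libraries and 22 to 146 leaving out a library. Traf6 KO against WT (38) gave 167 by DESeq2, 25 without those libraries and 18 to 40 leaving out a library. For dKO against WT (6790) it was 4223 and 4070 with the trend removed without and with the block. For dKO against Tet2 KO (4963) it was 2329 and 2183, 24 with the compared groups alone, 57 without those libraries and 867 to 6724 leaving out a library. For dKO against Traf6 KO (5342) it was 2828 and 2704, then 970 and 1706, and 2069 to 6946 leaving out a library. The interaction (31) gave 259 by DESeq2, 15 without those libraries and 14 to 2445 leaving out a library. Apart from fewer libraries where some were left out, the cause was not tested. Same-numbered libraries did not deviate together (r -0.18 to 0.19 over 18 pairs, 3 above 0.1), so the replicate block pairs libraries that share only a number. At 1 to 52 reads for Cd14 outside dKO, depth limits the size of its ratios.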
